A study of Homo sapiens with 9 samples.

Results

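The Hippo pathway and the genes that its effectors YAP and TAZ switch on were described here as a set of 33 genes, picked by gene symbol from the 61806 genes of the table. By role, 18 of them are pathway components and 15 are targets. Of the 33, 31 passed the filter on low counts and were tested among 13562 genes. AMOT and TEAD2 did not pass it. The cells were 786-O, an established human line from a clear cell kidney cancer without functional VHL, and all 9 libraries are labelled wild type in genotype. There were 3 libraries of cells with TRIM28 silenced, 3 with PARP1 silenced and 3 of control cells. TRIM28 is a chromatin corepressor and PARP1 an enzyme that adds poly(ADP-ribose) chains to proteins at broken DNA. The labels call the reagent siRNA in one field and shRNA in another, and call the control a negative control in one place and parental in another, so which of these holds is not known. No label gives the time after silencing or says that replicates were separate cultures, and the spread behind each p-value may therefore be technical.

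Hippo signalling is a kinase cascade that couples cell contact and tension to growth. The MST kinases, with the scaffold SAV1, activate the LATS kinases and their MOB1 partners, and LATS phosphorylates YAP and its relative TAZ, which are then held in the cytoplasm or degraded. Unphosphorylated YAP and TAZ enter the nucleus, bind TEAD factors and switch on genes of the matrix, the cytoskeleton and growth, among them some of the pathway's own inhibitors, such as LATS2, NF2 and the angiomotins. Because YAP and TAZ are controlled mainly through phosphorylation and location, transcript levels show the amount of message and not the activity of the proteins.

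The sequences through which TEAD factors act are shown first, for the targets whose promoter window held a TEAD element. Promoter windows came from RefSeq (GRCh38.p14) and ran from 250 bases before to 50 bases after the annotated start. They were searched on both strands for the TEAD element GGAATG, which reads CATTCC on the other strand, and for the AP-1 motif TGANTCA, which can share up to 4 letters with it (GAAT or ATTC). The table held windows of 15 components and 10 targets. The targets CCN1, CRIM1, ARHGEF17, DLC1 and ASAP1 and the components STK3, TEAD1 and TEAD4 had no window and were not searched. The element was found in 3 of those 10 targets, or 30.0%, and in 3 of the 15 components, or 20% (LATS2, PTPN14 and YAP1), against 14.0% of 35116 promoters. The AP-1 motif was in the windows of ANKRD1, F3 and MOB1B, and in 7.71% of all promoters. The 250 bases before the start are printed 5′ to 3′ on the gene's strand, the minus strand in each case, with the TEAD element in capitals. CCN2 (chr6:131951373-131951622) has it 169, 104 and 95 bases before the start, ANKRD1 (chr10:90921088-90921337) 220 and 128 bases before it, and NUAK2 (chr1:205321746-205321995) 197 bases before it in the reverse direction and 18 bases before it.
CCN2: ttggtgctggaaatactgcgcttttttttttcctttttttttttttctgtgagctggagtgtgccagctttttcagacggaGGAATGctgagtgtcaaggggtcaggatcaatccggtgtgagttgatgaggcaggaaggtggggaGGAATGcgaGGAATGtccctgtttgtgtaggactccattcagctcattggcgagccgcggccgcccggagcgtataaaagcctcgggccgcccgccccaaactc
ANKRD1: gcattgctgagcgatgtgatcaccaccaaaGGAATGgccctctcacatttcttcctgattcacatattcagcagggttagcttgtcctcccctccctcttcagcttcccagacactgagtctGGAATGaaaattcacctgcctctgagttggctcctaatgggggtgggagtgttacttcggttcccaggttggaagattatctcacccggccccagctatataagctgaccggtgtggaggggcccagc
NUAK2: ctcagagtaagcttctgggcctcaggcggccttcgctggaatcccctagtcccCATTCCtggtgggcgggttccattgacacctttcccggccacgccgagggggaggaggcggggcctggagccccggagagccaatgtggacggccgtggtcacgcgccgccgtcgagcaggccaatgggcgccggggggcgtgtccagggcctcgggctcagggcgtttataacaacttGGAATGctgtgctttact
The window of CCN2, a gene widely used as a readout of YAP and TEAD, holds a close pair among its elements. A match is a description of the letters and not evidence of binding in these cells.

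Both silencings were visible in the libraries. TRIM28 stood at 15.1% of the control mean in TRIM28 knockdown and PARP1 at 3.11% of it in PARP1 knockdown, while PARP1 also stood at 52.9% in TRIM28 knockdown and TRIM28 at 124% in PARP1 knockdown. Total counts ran from 11963110 to 20224374 per library. The 8 renal epithelial markers were all measured, and they summed to 1860 to 2070 CPM in TRIM28 knockdown, 2120 to 2450 CPM in PARP1 knockdown and 1550 to 1730 CPM in control. In each knockdown 2 of the 8 rose (the keratins KRT8 and KRT18) and 3 fell (CDH6, HAVCR1 and VCAM1), so the sum and single markers moved with the groups, and their part in the results was not tested. The leukocyte markers PTPRC and CD3E were at 0 in every library, and the summed leukocyte, endothelial and fibroblast lists stayed at or below 2.37, 4.86 and 5.13 CPM. Levels in long transcripts also moved with the groups. The change of log2 level per doubling of exon length, set against the mean of all libraries, was between -0.0244 and -0.00085 in TRIM28 knockdown, between -0.167 and -0.0968 in PARP1 knockdown, and 0.203, 0.175 and 0.0725 in control replicates 1 to 3. Control replicate 3 thus lay nearest to the knockdowns, and many values below repeat that order. CPM here are counts scaled to a common library size with TMM factors. In a bulk culture, fewer expressing cells and less RNA per cell cannot be told apart.

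Per length of transcript, 3 targets were the most abundant members, and the MST and LATS kinases were among the least abundant. In control cells, on the authors' FPKM scale, CCN1 was highest at 149 ± 5.78, followed by AJUBA at 102 ± 4.28 and GADD45B at 62.5 ± 3.41 (SD, n = 3). NF2, F3, FJX1, AMOTL2 and CCN2 came next with means between 22.3 and 24.8 FPKM. WWTR1, the gene of TAZ, averaged 13.5 ± 0.552 FPKM and YAP1 4.17 ± 0.863 FPKM (SD, n = 3), so the TAZ message was the more abundant of the coactivators. TEAD4, at 17.6 ± 0.465 FPKM, stood well above TEAD3 at 2.24 ± 0.146 and TEAD1 at 0.667 ± 0.197 (SD, n = 3). Of the kinase core, MOB1A averaged 10.3 ± 1.49 FPKM, and LATS2, LATS1, SAV1, STK4, STK3 and MOB1B had means between 0.367 and 1.39 FPKM. AMOT had 6, 2 and 7 reads in TRIM28 knockdown, 7, 1 and 0 in PARP1 knockdown and 13, 9 and 7 in control. TEAD2 had 4, 5 and 0 reads in TRIM28 knockdown, 2, 3 and 0 in PARP1 knockdown and 1, 1 and 2 in control. Neither gene allows a statement about change at this depth.

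TRIM28 knockdown lowered a small group of members, and the widely used readout targets CCN1, CCN2 and ANKRD1 did not pass. Of the 31 tested members, 9 fell, where 17.5% of all tested genes fell, and 1 rose, where 10.3% of all tested genes rose (adjusted p below 0.05 by edgeR's quasi-likelihood test, Benjamini-Hochberg over all tested genes). The components gave 0 higher and 4 lower of 16, namely STK4, AMOTL1, PTPN14 and YAP1. At an unadjusted p below 0.05, 1 component was higher by edgeR, and DESeq2 called 1 component higher, WWTR1. The targets gave 1 higher, GADD45B, and 5 lower of 15, namely CRIM1, MYOF, F3, DLC1 and ASAP1. The median log2 fold change was -0.25 for components and -0.27 for targets, against -0.02 for all tested genes. Fewer members were lower without TRIM28 knockdown replicate 3 (5), control replicate 1 (5) or control replicate 2 (4), and 12 were lower without control replicate 3. Over all tested genes the 2374 lower became 1669, 1217, 1408 and 2755 in the same order. The count of 1 higher member became 0 without TRIM28 knockdown replicates 2 or 3 or control replicates 1 or 2. Over all tested genes the 1394 higher became 592, 948, 320 and 447 in those fits.

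PARP1 knockdown changed most of the set, in a transcriptome in which most genes changed. Of the 31 tested members, 20 fell, where 32.2% of all tested genes fell, and 4 rose, where 27.1% rose. Components gave 11 lower and 1 higher of 16, and targets 9 lower and 3 higher of 15. The median log2 fold change was -0.68 for components and -0.43 for targets, against -0.07 for all tested genes. Every member that passed in TRIM28 knockdown passed in PARP1 knockdown in the same direction. These comparisons share the 3 control libraries, so that overlap is given as a count only: 9 of the 9 lower and 1 of the 1 higher in TRIM28 knockdown, which are 9 of the 20 lower and 1 of the 4 higher in PARP1 knockdown. The matching share over all tested genes is not given here, so the overlap cannot be read as particular to these members. Without control replicate 1, 7 components fell in place of 11, and 3566 of all tested genes in place of 4361.

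The direct comparison, TRIM28 knockdown minus PARP1 knockdown, takes no difference from control. The control libraries are still part of its fit and of its estimate of the spread. In the direct comparison 8 of the 31 members were higher, where 13.2% of all tested genes were higher, and 2 were lower, where 11.9% were lower. The higher ones were AMOTL1, AMOTL2, PTPN14, CCN1, CCN2, CRIM1, F3 and DLC1, all of which fell in PARP1 knockdown. The lower ones were TEAD4 and GADD45B. The median was 0.39 for components and 0.23 for targets, against 0.03 for all tested genes. The 8 became 5 without TRIM28 knockdown replicate 1 or 3 or PARP1 knockdown replicate 2, and 12 without PARP1 knockdown replicate 1. Over all tested genes the 1795 higher became 990, 1132, 1168 and 2465 in the same order. The 2 lower became 1 without TRIM28 knockdown replicate 3, and 0 without TRIM28 knockdown replicate 1 or PARP1 knockdown replicate 2 or 3. Over all tested genes the 1612 lower became 1122, 664, 981 and 702 in the same order. With these groups fitted without the control libraries, AMOTL1 (0.94, adjusted p = 0.0525) and AMOTL2 (0.42, adjusted p = 0.0824) did not pass. MYOF then passed as higher (0.46, adjusted p = 0.0329). When libraries were scaled by their totals and not by TMM, the median of all tested genes moved to -0.18 in TRIM28 knockdown minus control, -0.39 in PARP1 knockdown minus control and 0.20 in the direct comparison. Members then split into 0 higher and 10 lower, 1 higher and 23 lower, and 11 higher and 0 lower. The 13562 tested genes split in the same order into 453 higher and 2856 lower, 2024 and 5803, and 2350 and 640.

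**Figure D1:**
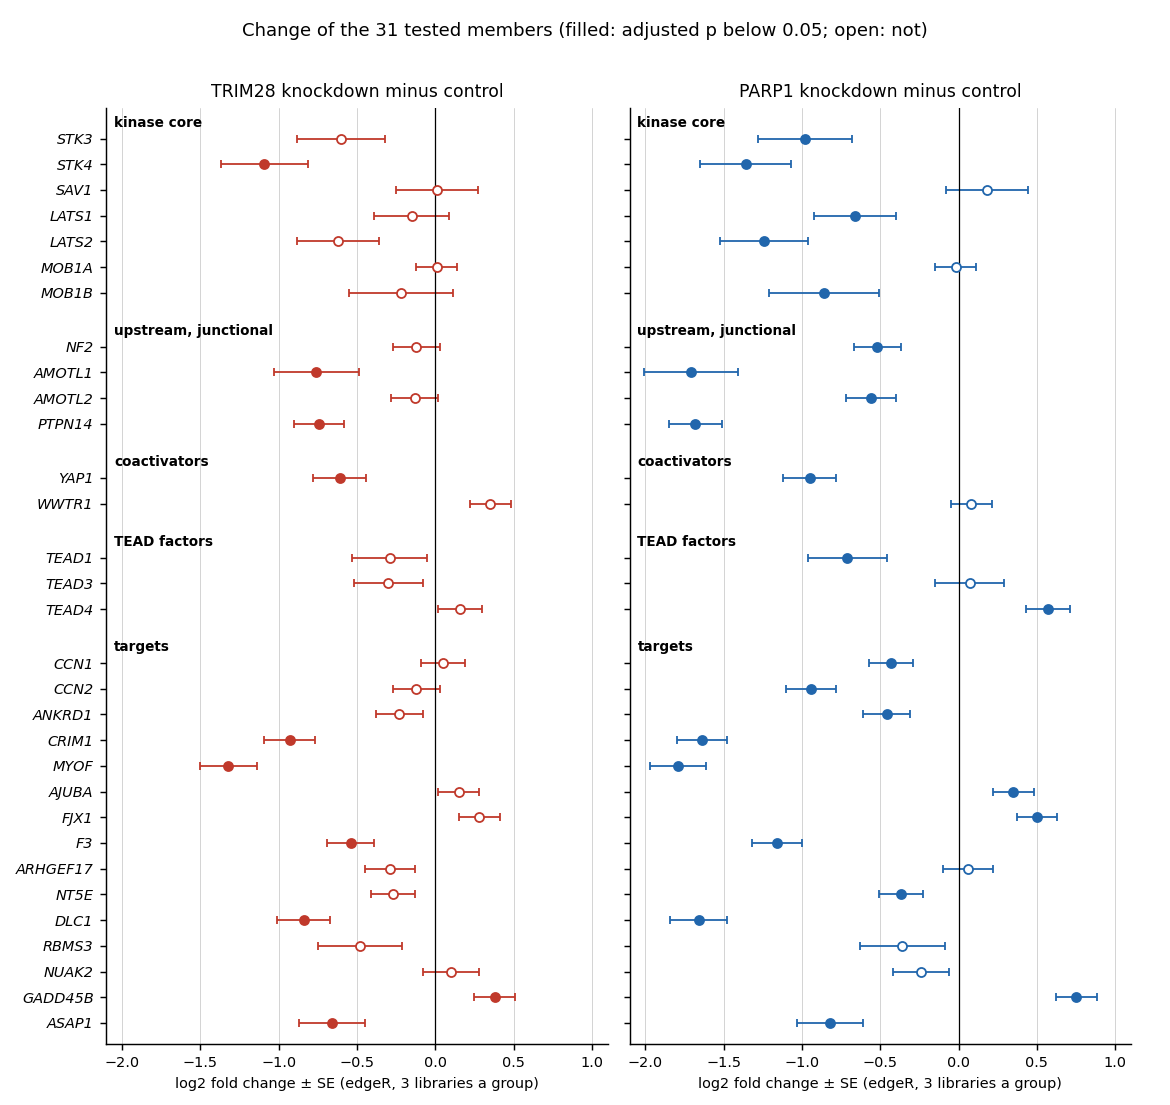
Log2 fold change (x axis) with its standard error for each of the 31 tested members (y axis, grouped by role) in TRIM28 knockdown minus control (left) and PARP1 knockdown minus control (right), 3 libraries a group. Filled points have an adjusted p below 0.05 and open points do not. YAP1 lies left of 0 in both panels at -0.61 and -0.95 while WWTR1 lies right of it at 0.35 and 0.08, and CCN2 moves away from 0 in PARP1 knockdown only, at -0.94.

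In the kinase core, the upstream kinases and LATS2 were low in PARP1 knockdown, and the abundant cofactor MOB1A did not pass. LATS2, a kinase that phosphorylates YAP and is itself a YAP target, had 3.80, 4.54 and 5.18 CPM in TRIM28 knockdown and 4.11, 2.88 and 1.58 CPM in PARP1 knockdown, against 7.70, 7.79 and 5.35 CPM in control. Each knockdown library was below each control library. LATS2 fell in PARP1 knockdown (log2 fold change -1.24 ± 0.28, adjusted p = 0.000441) and in every alternative tried there, with values between -1.62 and -0.71. It did not pass in TRIM28 knockdown (-0.62 ± 0.26, adjusted p = 0.0762), except without control replicate 3 (-0.75, adjusted p = 0.0354) and in the fit of those 6 libraries alone (-0.62, adjusted p = 0.0291). STK4, the MST1 kinase, had 2.68, 4.86 and 3.92 CPM in TRIM28 knockdown and 2.32, 3.55 and 3.66 CPM in PARP1 knockdown, against 9.00, 10.4 and 4.88 CPM in control. It fell in TRIM28 knockdown (-1.09 ± 0.28, adjusted p = 0.00551) and PARP1 knockdown (-1.36 ± 0.29, adjusted p = 0.000254). Control replicate 3 was the lowest control library and stood only just above the highest TRIM28 knockdown library. The call in TRIM28 knockdown ended without control replicate 2 (-0.85, adjusted p = 0.0576).

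STK3, the MST2 kinase, had 3.74, 3.19 and 4.22 CPM in TRIM28 knockdown and 2.72, 3.13 and 2.77 CPM in PARP1 knockdown, against 8.03, 6.00 and 3.00 CPM in control. Control replicate 3 lay among the knockdown libraries. STK3 fell in PARP1 knockdown (-0.98 ± 0.30, adjusted p = 0.0062), but not without control replicate 1 (-0.61, adjusted p = 0.108). In TRIM28 knockdown it did not pass (-0.60 ± 0.28, adjusted p = 0.111), and it passed without control replicate 3 (-0.88, adjusted p = 0.00718). LATS1, the partner kinase of LATS2, fell in PARP1 knockdown (-0.66 ± 0.26, adjusted p = 0.0299) with overlapping libraries, and this ended without PARP1 knockdown replicate 1 (-0.49) or 2 (-0.69) or control replicate 1 (-0.53) or 2 (-0.52). MOB1B, a LATS cofactor at 1.09 to 2.25 CPM in PARP1 knockdown and 2.18 to 3.75 CPM in control, also fell (-0.86 ± 0.35, adjusted p = 0.0377). That call ended without PARP1 knockdown replicate 2 (-0.73) or 3 (-0.68) or control replicate 1 (-0.58) or 3 (-0.86), and by DESeq2 (-0.82). MOB1B overlaps the more abundant DCK on the same strand, so its reads are uncertain. In TRIM28 knockdown LATS1 had -0.15 ± 0.24 and MOB1B -0.22 ± 0.33 on the log2 scale, and neither passed.

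SAV1, the scaffold of the MST kinases, and MOB1A, the main LATS cofactor by level, passed in neither knockdown. MOB1A had 61.3, 58.6 and 58.1 CPM in TRIM28 knockdown and 50.3, 62.4 and 61.6 CPM in PARP1 knockdown, against 64.6, 60.6 and 51.9 CPM in control. The groups overlap fully, with log2 fold changes of 0.01 ± 0.13 and -0.02 ± 0.13. In PARP1 knockdown the call depends on the scaling: MOB1A passed as lower with library totals (-0.36) and in the filtered limma fits (-0.32 and -0.35), and as higher with length removed (0.31). SAV1 ranged from 2.83 to 3.36 CPM in TRIM28 knockdown, 2.91 to 4.06 CPM in PARP1 knockdown and 2.89 to 3.24 CPM in control.

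Among the upstream proteins at junctions, all 4 tested members fell in PARP1 knockdown, and 2 of them in TRIM28 knockdown. PTPN14, a phosphatase that binds YAP and keeps it from the nucleus, had 19.9, 21.3 and 17.2 CPM in TRIM28 knockdown and 10.1, 11 and 9.30 CPM in PARP1 knockdown, against 37.7, 34.5 and 25.5 CPM in control. The 3 groups formed 3 separate ranges, with PARP1 knockdown lowest. Its log2 fold change was -0.74 ± 0.16 in TRIM28 knockdown (adjusted p = 0.00164) and -1.68 ± 0.17 in PARP1 knockdown (adjusted p = 1.78e-08), and the direct difference was 0.94 ± 0.17 (adjusted p = 0.000823). AMOTL1, an angiomotin that tethers YAP at junctions, had 3.86, 2.95 and 3.86 CPM in TRIM28 knockdown and 1.99, 0.930 and 2.67 CPM in PARP1 knockdown, against 7.12, 6.44 and 4.65 CPM in control. It fell by 1.71 on the log2 scale in PARP1 knockdown (SE 0.30, adjusted p = 3.08e-05) and by 0.76 in TRIM28 knockdown (SE 0.27, adjusted p = 0.0397). The TRIM28 knockdown call is weak. It ended when any library but control replicate 3 was left out, at -0.82, -0.62 and -0.80 without TRIM28 knockdown replicates 1, 2 and 3 and at -0.61 and -0.70 without control replicates 1 and 2. The direct difference of 0.95 ± 0.32 (adjusted p = 0.0303) ended without TRIM28 knockdown replicate 1 (0.89) or 3 (0.87) or PARP1 knockdown replicate 2 (0.64).

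NF2, which encodes the tumour suppressor merlin, and AMOTL2, an angiomotin that is also a common YAP target, had like patterns. NF2 had 138, 158 and 157 CPM in TRIM28 knockdown and 149, 106 and 88.8 CPM in PARP1 knockdown, against 156, 167 and 170 CPM in control. AMOTL2 had 106, 118 and 132 CPM in TRIM28 knockdown and 115, 81.8 and 67.0 CPM in PARP1 knockdown, against 131, 137 and 122 CPM in control. For both, PARP1 knockdown replicate 1 was the highest and replicate 3 the lowest PARP1 knockdown library. Both fell in PARP1 knockdown, NF2 by 0.52 (SE 0.15, adjusted p = 0.00453) and AMOTL2 by 0.56 on the log2 scale (SE 0.16, adjusted p = 0.00327). In TRIM28 knockdown they had -0.12 ± 0.15 and -0.13 ± 0.15 and did not pass. AMOTL2 was higher in TRIM28 knockdown than in PARP1 knockdown (0.43 ± 0.16, adjusted p = 0.0448), a call that ended without TRIM28 knockdown replicate 1 (0.50), 2 (0.42) or 3 (0.32) or PARP1 knockdown replicate 2 (0.38) or 3 (0.27). NF2 missed the threshold there (0.40 ± 0.15, adjusted p = 0.0534) and passed without PARP1 knockdown replicate 1 (0.64).

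The coactivators parted: YAP1 fell in both knockdowns and WWTR1 in neither. YAP1 had 15.3, 16.4 and 14.5 CPM in TRIM28 knockdown and 13.4, 10.2 and 12.7 CPM in PARP1 knockdown, against 27.2, 24.1 and 19.1 CPM in control. No knockdown library reached the lowest control library, which was replicate 3. YAP1 fell by 0.61 (SE 0.17, adjusted p = 0.00898) in TRIM28 knockdown and by 0.95 (SE 0.17, adjusted p = 3.65e-05) in PARP1 knockdown on the log2 scale, with a direct difference of 0.34 ± 0.17 (adjusted p = 0.153). The TRIM28 knockdown call ended without TRIM28 knockdown replicate 3 (-0.55), control replicate 1 (-0.47) or control replicate 2 (-0.57). WWTR1 had 130, 133 and 125 CPM in TRIM28 knockdown and 86.2, 118 and 117 CPM in PARP1 knockdown, against 98.6, 104 and 101 CPM in control. All TRIM28 knockdown libraries were above all control libraries, while the PARP1 knockdown libraries lay on both sides of them. The log2 fold change of WWTR1 was 0.35 ± 0.13 in TRIM28 knockdown (adjusted p = 0.0503) and 0.08 ± 0.13 in PARP1 knockdown (adjusted p = 0.616). In TRIM28 knockdown it passed by DESeq2 (0.39, adjusted p = 0.0216) and in the fit of those 6 libraries alone (0.35, adjusted p = 0.00466).

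Because both coactivators are read in the same library, the share of WWTR1 in their summed FPKM does not depend on the scaling between libraries. It was 86.6%, 85.9% and 86.6% in TRIM28 knockdown and 82.9%, 89.7% and 87.4% in PARP1 knockdown, against 73.3%, 76.5% and 80.0% in control. Each knockdown library had a larger TAZ share than each control library, and control replicate 3 was again nearest. This share was chosen after the values were seen and was not tested.

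**Figure D2:**
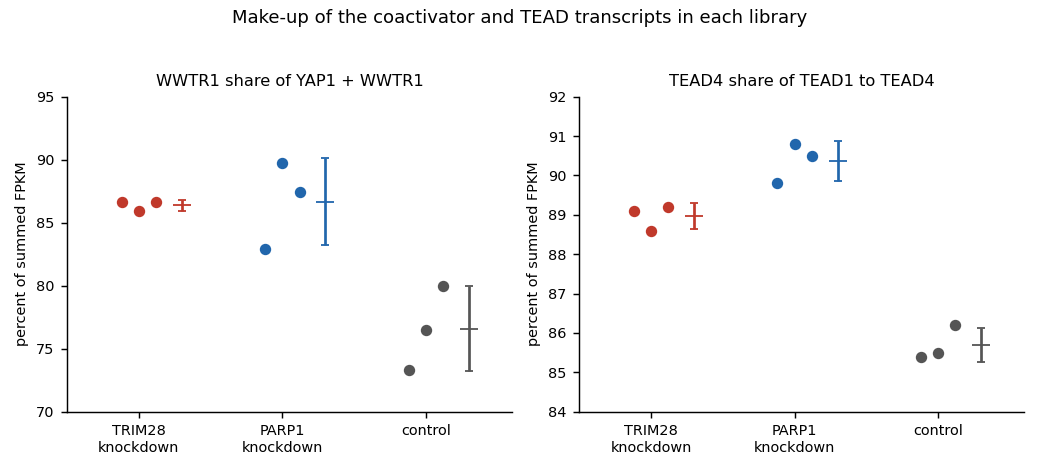
Percent of the summed FPKM of YAP1 and WWTR1 that belongs to WWTR1 (left) and percent of the summed FPKM of TEAD1 to TEAD4 that belongs to TEAD4 (right), by library; the y axes do not start at 0. Points are libraries and the bars beside them show the mean and SD of 3 libraries. WWTR1 takes 82.9% to 89.7% in the knockdown libraries and 73.3% to 80.0% in control, and TEAD4 takes 88.6% to 90.8% in the knockdown libraries and 85.4% to 86.2% in control.

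The TEAD factors, which bring YAP and TAZ to DNA, moved in opposite directions in PARP1 knockdown. TEAD4 had 34.0, 43.9 and 42.6 CPM in TRIM28 knockdown and 54.7, 51.0 and 54.3 CPM in PARP1 knockdown, against 33.7, 36.0 and 37.9 CPM in control. PARP1 knockdown stood above every other library. TEAD4 rose there (0.57 ± 0.14, adjusted p = 0.00087), did not pass in TRIM28 knockdown (0.16 ± 0.14, adjusted p = 0.397) and was lower in TRIM28 knockdown than in PARP1 knockdown (-0.41 ± 0.14, adjusted p = 0.0305). That direct call ended without TRIM28 knockdown replicate 1 (-0.30) or PARP1 knockdown replicate 2 (-0.44) or 3 (-0.40). With library totals the rise in PARP1 knockdown was 0.25 (adjusted p = 0.128). TEAD1 had 5.17, 4.78 and 5.61 CPM in TRIM28 knockdown and 3.44, 3.55 and 4.75 CPM in PARP1 knockdown, against 7.46, 7.21 and 4.42 CPM in control. Control replicate 3 overlapped both knockdowns. TEAD1 fell in PARP1 knockdown (-0.71 ± 0.25, adjusted p = 0.0162), a call that ended without PARP1 knockdown replicate 2 (-0.65), control replicate 1 (-0.54) or control replicate 2 (-0.57). TEAD3 ranged from 3.86 to 5.82 CPM in TRIM28 knockdown, 5.67 to 7.22 CPM in PARP1 knockdown and 5.53 to 6.77 CPM in control, and passed in neither. Within the 4 TEAD genes, TEAD4 took 88.6% to 89.2% of the FPKM in TRIM28 knockdown, 89.8% to 90.8% in PARP1 knockdown and 85.4% to 86.2% in control.

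The 3 targets most used as readouts of YAP and TAZ fell in PARP1 knockdown and did not pass in TRIM28 knockdown. CCN2, a secreted matrix protein with 3 TEAD elements in the promoter printed above, had 38.8, 47.7 and 42.5 CPM in TRIM28 knockdown and 30.9, 22.4 and 19.1 CPM in PARP1 knockdown, against 47.0, 48.1 and 44.8 CPM in control. PARP1 knockdown lay below every other library, and TRIM28 knockdown overlapped control. Its log2 fold change was -0.94 ± 0.16 in PARP1 knockdown (adjusted p = 1.48e-05), -0.12 ± 0.15 in TRIM28 knockdown (adjusted p = 0.602) and 0.83 ± 0.16 in the direct comparison (adjusted p = 0.00103). The fall in PARP1 knockdown passed in each alternative tried, between -1.30 and -0.80. CCN1, its close relative and the member with the highest FPKM in control, had 487, 539 and 504 CPM in TRIM28 knockdown and 458, 353 and 288 CPM in PARP1 knockdown, against 471, 510 and 501 CPM in control. It fell in PARP1 knockdown (-0.43 ± 0.14, adjusted p = 0.0117), where replicate 1 stood just under the lowest control library. Without PARP1 knockdown replicate 3 (-0.28, adjusted p = 0.0783) or control replicate 2 (-0.37, adjusted p = 0.0687) it did not pass. The direct difference for CCN1 was 0.48 ± 0.14 (adjusted p = 0.0165) and did not pass without TRIM28 knockdown replicate 2 (0.43) or 3 (0.46) or PARP1 knockdown replicate 2 (0.45) or 3 (0.33). In TRIM28 knockdown minus control CCN1 had 0.05 ± 0.14.

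ANKRD1, a cardiac ankyrin repeat protein that YAP induces in many cell types, had 23.5, 21.8 and 20.3 CPM in TRIM28 knockdown and 17.4, 19.2 and 19.6 CPM in PARP1 knockdown, against 28.2, 25.9 and 22.9 CPM in control. The PARP1 knockdown libraries were the lowest of the 9. It fell in PARP1 knockdown (-0.46 ± 0.15, adjusted p = 0.0109), but not without control replicate 1 (-0.35, adjusted p = 0.0953) or control replicate 2 (-0.42, adjusted p = 0.0585), and had -0.23 ± 0.15 in TRIM28 knockdown (adjusted p = 0.253). In TRIM28 knockdown ANKRD1 passed as lower in the filtered limma fits (-0.36 and -0.38) and with length removed (-0.47, adjusted p = 0.021), and the direct comparison passed in the same fits (0.36, 0.39 and 0.45). NUAK2, an AMPK-related kinase and the third gene with a TEAD element shown, had 22.5, 24.1 and 38.5 CPM in TRIM28 knockdown and 26.3, 21.7 and 19.0 CPM in PARP1 knockdown, against 27.0, 25.5 and 26.9 CPM in control. It passed in neither comparison, though in PARP1 knockdown it passed as lower with library totals (-0.56) and in the filtered limma fits (-0.51 and -0.58), and TRIM28 knockdown replicate 3 stood apart from the other libraries.

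Another group of targets, MYOF, CRIM1, DLC1, F3 and ASAP1, fell in both knockdowns. MYOF, the membrane repair protein myoferlin, had 47.8, 46.1 and 45.1 CPM in TRIM28 knockdown and 30.7, 30.2 and 39.7 CPM in PARP1 knockdown, against 136, 140 and 71.6 CPM in control. CRIM1, a transmembrane protein that binds BMPs, had 51.1, 41.8 and 47.5 CPM in TRIM28 knockdown and 28.9, 30.3 and 26.8 CPM in PARP1 knockdown, against 99.6, 104 and 64.2 CPM in control. In both genes control replicate 3 stood far below the other controls and still above all 6 knockdown libraries. MYOF fell by 1.32 (SE 0.18, adjusted p = 1.01e-05) in TRIM28 knockdown and by 1.79 (SE 0.18, adjusted p = 2.01e-08) in PARP1 knockdown on the log2 scale. CRIM1 fell by 0.93 (SE 0.16, adjusted p = 0.000117) and by 1.64 (SE 0.16, adjusted p = 9.69e-09) in the same comparisons. They were the only members whose call in TRIM28 knockdown held in each of the 17 alternatives tried for them. CRIM1 overlaps FEZ2, at 33.5 CPM, on the opposite strand. For CRIM1 the direct difference was 0.71 ± 0.16 (adjusted p = 0.00317), and for MYOF it was 0.47 ± 0.18 (adjusted p = 0.0607), which passed without PARP1 knockdown replicate 3 (0.61).

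DLC1, a GTPase-activating protein and tumour suppressor, had 12.4, 12.9 and 10.8 CPM in TRIM28 knockdown and 6.29, 7.36 and 6.83 CPM in PARP1 knockdown, against 23.7, 23.4 and 17.4 CPM in control. Its libraries formed 3 separate ranges. DLC1 fell by 0.84 (SE 0.17, adjusted p = 0.000958) in TRIM28 knockdown and by 1.66 (SE 0.18, adjusted p = 5.47e-08) in PARP1 knockdown, with a direct difference of 0.82 ± 0.19 (adjusted p = 0.00332). F3, the tissue factor that starts blood clotting, had 46.8, 36.5 and 40.3 CPM in TRIM28 knockdown and 31, 25.5 and 23.4 CPM in PARP1 knockdown, against 68.6, 62.4 and 48.4 CPM in control. It fell by 1.16 (SE 0.16, adjusted p = 8.6e-07) in PARP1 knockdown and by 0.54 (SE 0.15, adjusted p = 0.0112) in TRIM28 knockdown. Its TRIM28 knockdown call ended without TRIM28 knockdown replicate 2 (-0.43) or 3 (-0.50) or control replicate 1 (-0.40) or 2 (-0.48), and its direct difference of 0.63 ± 0.16 (adjusted p = 0.00575) ended without TRIM28 knockdown replicate 1 (0.53). ASAP1, a GTPase-activating protein for Arf, had 12.7, 16.8 and 12.6 CPM in TRIM28 knockdown and 9.67, 11.8 and 16.2 CPM in PARP1 knockdown, against 27.3, 24.4 and 14.7 CPM in control. Control replicate 3 lay inside both knockdown ranges. ASAP1 fell in PARP1 knockdown (-0.82 ± 0.21, adjusted p = 0.00177) and TRIM28 knockdown (-0.66 ± 0.21, adjusted p = 0.0206), the last not without TRIM28 knockdown replicate 1 (-0.59) or 3 (-0.57) or control replicate 1 (-0.46) or 2 (-0.57).

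**Figure D3:**
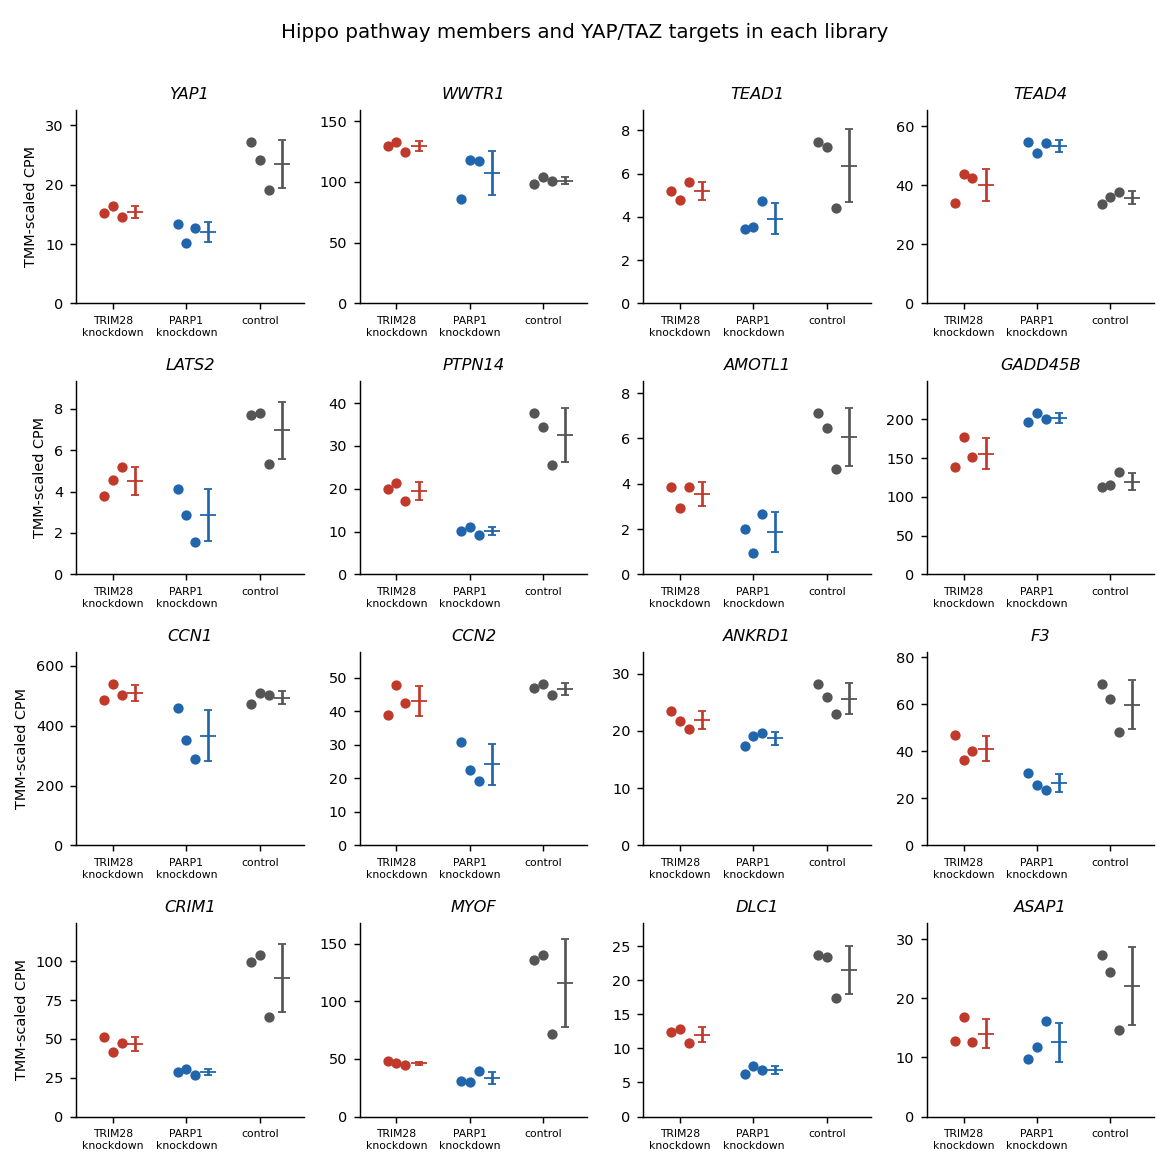
TMM-scaled CPM (y axes from 0) of 16 members in TRIM28 knockdown, PARP1 knockdown and control; each point is a library in replicate order and the bar beside it gives the mean and SD of 3 libraries. In CRIM1, MYOF, YAP1 and ASAP1 the third control library lies below the other controls, at 64.2, 71.6, 19.1 and 14.7 CPM, while the CCN2 libraries of PARP1 knockdown, at 19.1 to 30.9 CPM, lie below all others.

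Fewer targets rose. GADD45B, a stress-response protein, had 138, 177 and 151 CPM in TRIM28 knockdown and 196, 208 and 200 CPM in PARP1 knockdown, against 112, 115 and 132 CPM in control. It rose in TRIM28 knockdown (0.38 ± 0.13, adjusted p = 0.0343) and PARP1 knockdown (0.75 ± 0.13, adjusted p = 2.78e-05), with no overlap between groups. The TRIM28 knockdown call ended without TRIM28 knockdown replicate 2 (0.30) or 3 (0.41) or control replicate 1 (0.35) or 2 (0.37). The direct difference of -0.37 ± 0.13 (adjusted p = 0.0385) ended without TRIM28 knockdown replicate 1 (-0.30) or 3 (-0.38) or PARP1 knockdown replicate 2 (-0.35) or 3 (-0.38). FJX1, the human counterpart of the Drosophila kinase four-jointed, rose in PARP1 knockdown (0.50 ± 0.13, adjusted p = 0.00238), at 63.8 to 79.0 CPM there and 45.2 to 52.7 CPM in control. In TRIM28 knockdown it ranged from 54.4 to 64.7 CPM (0.28 ± 0.13, adjusted p = 0.117). AJUBA, a LIM protein that restrains LATS, had 783, 641 and 628 CPM in PARP1 knockdown against 498, 533 and 582 CPM in control (0.35 ± 0.13, adjusted p = 0.0262). That call ended without PARP1 knockdown replicate 1 (0.24), control replicate 1 (0.33) or control replicate 2 (0.38), and AJUBA had 0.03 and FJX1 0.18 with library totals, neither of which passed. In TRIM28 knockdown AJUBA had 0.15 ± 0.13.

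NT5E, the ectonucleotidase that makes adenosine outside cells, fell in PARP1 knockdown (-0.37 ± 0.14, adjusted p = 0.027), at 62.1, 65.3 and 66.3 CPM against 89.0, 90.2 and 70.6 CPM in control. The groups do not overlap, but the call ended without PARP1 knockdown replicate 2 (-0.38), control replicate 1 (-0.28) or control replicate 2 (-0.27), and by DESeq2 (-0.31, adjusted p = 0.064). In TRIM28 knockdown NT5E had -0.27 ± 0.14 and did not pass. ARHGEF17, a guanine nucleotide exchange factor, had -0.29 ± 0.16 in TRIM28 knockdown and 0.06 ± 0.16 in PARP1 knockdown. With length removed ARHGEF17 passed as higher in PARP1 knockdown (0.58, adjusted p = 0.00465) and as lower in the direct comparison (-0.57, adjusted p = 0.017). RBMS3, an RNA-binding protein whose gene overlaps the antisense RBMS3-AS3 at a higher level than its own (6.51 against 3.83 CPM), had -0.48 ± 0.27 in TRIM28 knockdown and -0.36 ± 0.27 in PARP1 knockdown. RBMS3 passed in TRIM28 knockdown without control replicate 3 (-0.66, adjusted p = 0.0496). The sources used here do not say whether reads were counted by strand.

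Components and targets differ in transcript length, and change was related to length in these libraries. The components had a median summed exon length of 7872.5 bases and the targets 4533.0, against 5054.5 for all tested genes. Over 10 equal classes of tested genes from short to long, the median log2 fold change was 0.33 in the shortest class and -0.39 in the longest in TRIM28 knockdown minus control, and 0.65 in the shortest and -0.67 in the longest in PARP1 knockdown minus control. Across the 31 members, Spearman's rank correlation of fold change with length was -0.58 in TRIM28 knockdown and -0.52 in PARP1 knockdown, against -0.41 and -0.43 over all tested genes. It was -0.51 and -0.70 within components, and -0.65 and -0.28 within targets. The correlation with GC content was 0.24 and 0.29 across the members, against 0.42 and 0.51 over all tested genes. It was -0.09 and 0.12 within components, and 0.59 and 0.56 within targets. Genes of 1 library share its depth and composition, so these are descriptions. Set against the median of their own length class, components lay at a median of -0.04 in TRIM28 knockdown and -0.18 in PARP1 knockdown, and targets at -0.26 and -0.34. In PARP1 knockdown CCN2 lay 1.44 below its class, F3 1.42, MYOF 1.31, AMOTL1 1.16, CRIM1 1.15, LATS2 1.08, PTPN14 1.01, DLC1 0.98 and ANKRD1 0.96 on the log2 scale. CCN2, F3 and ANKRD1 are short transcripts, in classes whose medians were higher in PARP1 knockdown. STK3, LATS1, MOB1B, NF2, AMOTL2 and TEAD1 lay within 0.31 of their class median there, and WWTR1 lay 0.57 above it.

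**Figure D4:**
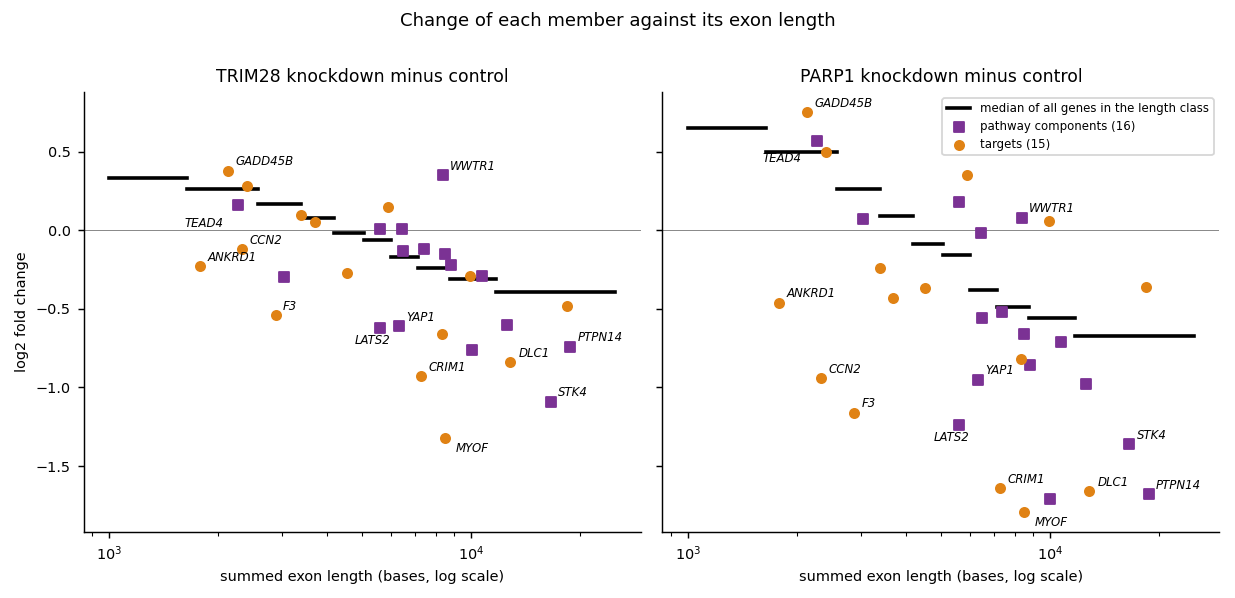
Log2 fold change of the 31 tested members (y axis) against summed exon length in bases (x axis, log scale) in TRIM28 knockdown minus control (left) and PARP1 knockdown minus control (right). Squares are components, circles targets, and black bars the median of all tested genes in each of 10 equal length classes, the outermost drawn only in part. In PARP1 knockdown CCN2 and F3 lie 1.44 and 1.42 below the bar of their class, while GADD45B, TEAD4 and FJX1 lie within 0.25 of theirs.

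When the length trend was removed from each library, members passing in PARP1 knockdown minus control became 12 lower and 5 higher in place of 20 and 4, while 24.8% of all tested genes were lower and 28.6% higher. When the GC trend was removed as well, they were 16 lower and 4 higher, beside 22.8% and 24.1% of all genes, but not the same genes. LATS2 (-1.01), AMOTL1 (-1.0), PTPN14 (-0.69), CCN2 (-1.25), CCN1 (-0.36), ANKRD1 (-0.54), CRIM1 (-0.97), MYOF (-0.98), F3 (-0.98), DLC1 (-0.72), NF2 (-0.42) and AMOTL2 (-0.58) still passed as lower with both trends removed, and NF2 and AMOTL2 did not pass with length alone removed (-0.12 and -0.24). STK3 (-0.08), STK4 (-0.31), MOB1B (-0.18) and YAP1 (-0.25) no longer passed. LATS1 (0.16), TEAD1 (0.22), NT5E (0.11) and ASAP1 (0.05) no longer passed and changed sign. The rises of GADD45B (-0.11), TEAD4 (-0.29) and FJX1 (-0.42) changed sign, and the last 2 then passed as lower, while AJUBA stayed higher (0.54). WWTR1 passed as higher in both knockdowns with length removed, and with both trends removed it had 0.81 in TRIM28 knockdown (adjusted p = 0.000617) and 0.89 in PARP1 knockdown (adjusted p = 3.32e-05). SAV1 (0.78) and MOB1A (0.55) also passed as higher, and TEAD3 (-0.57) and NUAK2 (-0.67) as lower. The medians in PARP1 knockdown were then -0.27 for components and -0.42 for targets.

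In TRIM28 knockdown minus control, 4 members fell and 2 rose with both trends removed, where 10.6% of all genes fell and 11% rose, so the members lay near that background. MYOF (-0.90), CRIM1 (-0.59) and F3 (-0.46) remained lower, joined by TEAD3 (-0.62), and WWTR1 and MOB1A (0.36) were higher. STK4 (-0.47), AMOTL1 (-0.40), PTPN14 (-0.20), YAP1 (-0.23), DLC1 (-0.33) and ASAP1 (-0.18) no longer passed, and GADD45B had -0.04. Whether the trends are technical or part of the response was not tested, and removing them takes out any change that real regulation shares with length or GC content. In the direct comparison AMOTL2 (0.46), PTPN14 (0.50), CCN1 (0.39), CCN2 (0.92) and F3 (0.51) remained higher, while AMOTL1 (0.61), CRIM1 (0.37), DLC1 (0.38), TEAD4 (0.04) and GADD45B (0.07) did not pass. NUAK2 (0.53) then passed as higher and AJUBA (-0.32) as lower.

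**Figure D5:**
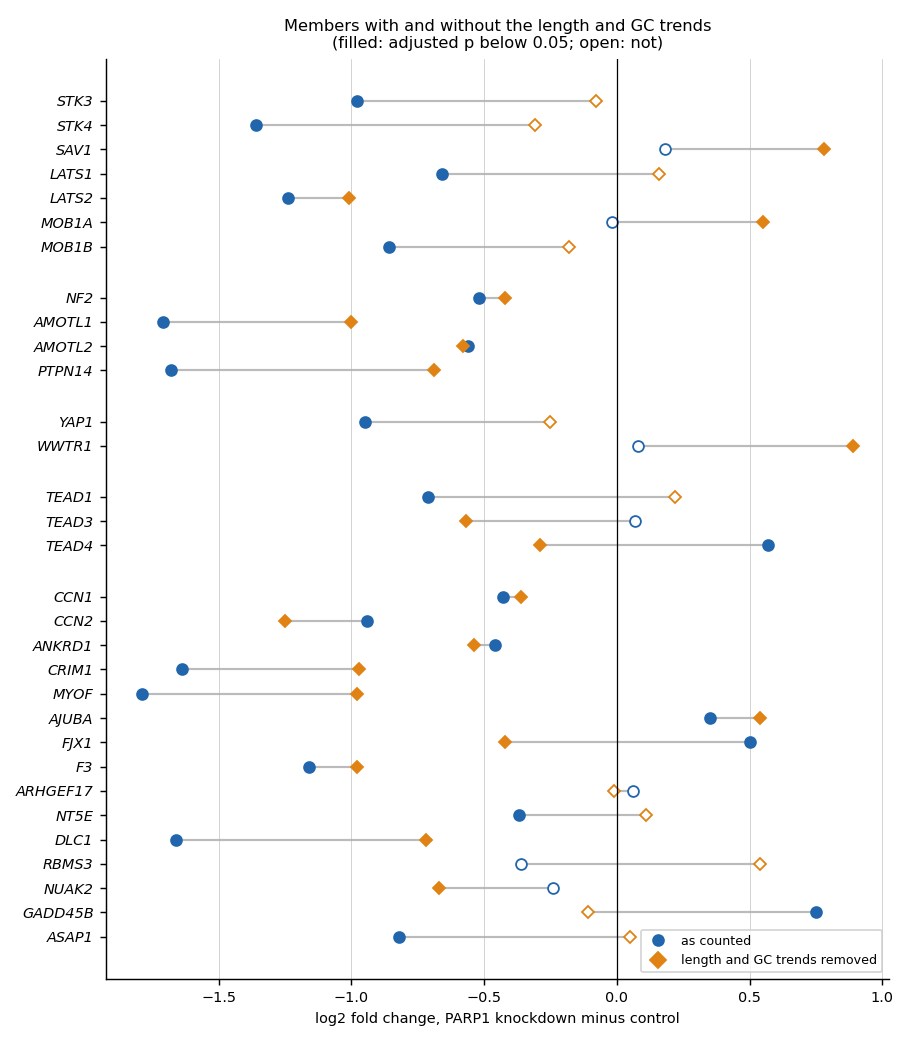
Log2 fold change in PARP1 knockdown minus control (x axis) of each of the 31 tested members (y axis) as counted (circles) and after length and GC trends were removed from each library (diamonds); filled symbols have an adjusted p below 0.05. CCN2 is at -0.94 and -1.25, YAP1 at -0.95 and -0.25, WWTR1 at 0.08 and 0.89, and TEAD4 at 0.57 and -0.29.

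Other genes of the pathway were read from wider lists of regulators and targets. Of the 38 tested among 41 wider regulators, 0 rose and 15 fell in TRIM28 knockdown by edgeR (0 higher by DESeq2, and 0 at an unadjusted p below 0.05), 5 rose and 23 fell in PARP1 knockdown, and 8 were higher and 3 lower in TRIM28 knockdown than in PARP1 knockdown. Over all tested genes, 17.5% fell and 10.3% rose in TRIM28 knockdown, 32.2% fell and 27.1% rose in PARP1 knockdown, and 13.2% were higher and 11.9% lower in the direct comparison. The median log2 fold change of the list was -0.48, -0.80 and 0.18, against -0.02, -0.07 and 0.03 for all tested genes. MAP4K4, a kinase that acts on LATS beside the MST kinases, had 61.0, 68.1 and 59.6 CPM in TRIM28 knockdown and 44.6, 52.9 and 40.7 CPM in PARP1 knockdown, against 175, 182 and 114 CPM in control. It fell by 1.32 (SE 0.16, adjusted p = 2.04e-06) in TRIM28 knockdown and by 1.77 (SE 0.16, adjusted p = 2.46e-09) in PARP1 knockdown. TP53BP2, a p53-binding protein that also binds YAP, fell by 1.01 and 1.67, and WWC3, a relative of the LATS activator KIBRA, by 0.89 and 1.40 in the same comparisons. In PARP1 knockdown the tumour suppressor RASSF1 rose by 1.02 ± 0.14 (adjusted p = 1.22e-06), and the polarity genes LLGL1 and SCRIB rose by 0.66 ± 0.14 and 0.58 ± 0.14. These 3 were also the lower ones in the direct comparison, at -0.93, -0.52 and -0.40. CTNNA1, the junctional protein alpha-catenin, and VGLL4, which competes with YAP for TEAD, were higher in TRIM28 knockdown than in PARP1 knockdown by 0.89 ± 0.18 (adjusted p = 0.00124) and 0.65 ± 0.16 (adjusted p = 0.00444), as was TP53BP2 by 0.66 ± 0.18. The 15 lower regulators in TRIM28 knockdown became 7 without TRIM28 knockdown replicate 2, 6 without control replicate 1 and 8 without control replicate 2. The 2374 lower of all tested genes became 1524, 1217 and 1408 in those fits. The 8 higher in the direct comparison became 3 without any 1 of the TRIM28 knockdown libraries or PARP1 knockdown replicate 3, and 5 without PARP1 knockdown replicate 2. The 1795 higher of all tested genes became 990, 1289, 1132, 1010 and 1168 in those fits. The 3 lower regulators in the direct comparison became 1 without TRIM28 knockdown replicate 1 or PARP1 knockdown replicate 3, and 5 without PARP1 knockdown replicate 1. The 1612 lower of all tested genes became 664, 702 and 2249. With length and GC trends removed, 1 regulator rose and 5 fell in TRIM28 knockdown, where 11% of all genes rose and 10.6% fell. In PARP1 knockdown 7 regulators then rose and 12 fell, where 24.1% of all genes rose and 22.8% fell.

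Of the 18 tested among 20 wider targets, 1 rose and 5 fell in TRIM28 knockdown, 1 rose and 11 fell in PARP1 knockdown, and 6 were higher and 0 lower in TRIM28 knockdown than in PARP1 knockdown by edgeR (0 lower by DESeq2, and 0 at an unadjusted p below 0.05). The shares of all tested genes are those given beside the regulators. The median log2 fold change was -0.22, -0.59 and 0.30. In this list Spearman's rank correlation of fold change with exon length was -0.53 in TRIM28 knockdown and -0.5 in PARP1 knockdown. With GC content it was 0.61 and 0.64. Counts with the length and GC trends removed are not given for this list. CCDC80, a secreted matrix protein, had 52.0, 57.9 and 56.1 CPM in TRIM28 knockdown and 32.3, 31.2 and 30.6 CPM in PARP1 knockdown, against 150, 156 and 108 CPM in control. THBS1, the matrix protein thrombospondin, had 202, 189 and 205 CPM in TRIM28 knockdown and 125, 120 and 101 CPM in PARP1 knockdown, against 433, 446 and 332 CPM in control. Both formed separate ranges in the 3 groups. CCDC80 fell by 1.32 (SE 0.14, adjusted p = 1.07e-06) and THBS1 by 1.02 (SE 0.14, adjusted p = 8.04e-06) in TRIM28 knockdown, and by 2.13 (SE 0.15, adjusted p = 6.12e-11) and 1.81 (SE 0.14, adjusted p = 3.06e-10) in PARP1 knockdown. The growth factor TGFB2 fell by 0.84 in TRIM28 knockdown (SE 0.20, adjusted p = 0.0029), and INHBA, an activin subunit, by 1.01 in PARP1 knockdown (SE 0.13, adjusted p = 6.23e-07). BIRC5, the mitotic protein survivin, was the target that rose, by 0.41 ± 0.13 in TRIM28 knockdown (adjusted p = 0.018) and 0.66 ± 0.13 in PARP1 knockdown (adjusted p = 9.3e-05). In the direct comparison CCDC80, THBS1 and AREG, the growth factor amphiregulin, were higher in TRIM28 knockdown by 0.82 ± 0.14, 0.78 ± 0.14 and 0.59 ± 0.14. Without control replicate 1 the 5 lower in TRIM28 knockdown became 3, and the 1 higher became 0 without that library, control replicate 2 or TRIM28 knockdown replicate 2. Over all tested genes the 2374 lower became 1217, and the 1394 higher became 320, 447 and 592, in those fits.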

How the data were processed

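Poly(A)-selected RNA of 786-O cells was read as directional libraries on a NovaSeq instrument, per the labels' protocols. Per the submitters' processing notes, the build was GRCh38 and the tools included STAR 2.7.9a and featureCounts 2.0.1, beside FastQC 0.11.9 and Trim Galore 0.6.6. Neither strand setting nor annotation release is given in the sources used here. In 1 table the authors deposited raw counts per gene and FPKM values. The deposited FPKM equalled the count per kilobase of summed exon length and per library total in all 173708 values compared (tolerance 0.0051 plus 0.1 percent), so FPKM were used for levels between genes.

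Counts of the 9 libraries were fitted together in edgeR 4.0.16 (R 4.3.3) with TMM factors, filterByExpr and the quasi-likelihood test, with 3 groups and 6 residual degrees of freedom. P-values were adjusted by Benjamini-Hochberg over 13562 tested genes and called below 0.05. All adjusted p-values in the text are from this fit unless another tool is named, and errors after ± on a log2 fold change are standard errors. Library totals lay between 11963110 and 20224374. Alternatives were DESeq2 1.42.0, its size factors, library totals, no low-count filter, limma 3.58.1 on log2(FPKM + 1) and log2(FPKM + 0.1) with a mean FPKM of at least 0.5 or no filter, the compared groups alone, the replicate number as a block, each library left out in turn, and lowess offsets per library (span 0.3) that take out the length trend or that of length and GC. GC content was available for 98.7% of tested genes. Fits were tested on simulated data. No 2 libraries of a group agreed within sampling noise. Members and lists were chosen with earlier results of these data known. All 33 members are named, and from the wider lists up to 3 called genes per direction and comparison with the smallest adjusted p.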

Additional observations from a re-analysis of the deposited data

How the results depend on the processing

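Of the 31 members, 1545 values were recomputed. By TRIM28 knockdown minus control, PARP1 knockdown minus control and the direct comparison, 453, 436 and 445 stayed on the same side of the threshold without a called value turning sign. With the sign kept, 44, 57 and 47 called values lost the threshold and 17, 12 and 21 passed it newly. A further 1, 10 and 2 turned sign with a call in at least 1 of the fits, and some of these also lost or newly passed the threshold. Of those on the same side, 90 had the opposite sign with no call in either fit. Calls held in every alternative that included the member for 2 of 10 members (CRIM1, MYOF), 8 of 24 (LATS2, AMOTL1, PTPN14, CCN2, CRIM1, MYOF, F3, DLC1) and 0 of 10. The filtered limma fits did not include STK3, STK4, MOB1B, AMOTL1, TEAD1 and RBMS3, which missed their FPKM filter. Counts and medians from those fits therefore cover fewer members. In the direct comparison PTPN14 and CCN2 held in every alternative but unfiltered limma. That fit called only 49 genes higher and 14 lower there, of 26854. The cause was not tested for any change named here.

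With length and GC trends removed, the sign of a value called in either fit turned for GADD45B in TRIM28 knockdown (-0.04), in PARP1 knockdown for LATS1 (0.16), MOB1A (0.55, and 0.31 with length alone), TEAD1 (0.22), TEAD3 (-0.57), TEAD4 (-0.29), FJX1 (-0.42), NT5E (0.11), GADD45B (-0.11) and ASAP1 (0.05), and in the direct comparison for TEAD4 (0.04) and GADD45B (0.07). Without a call in either fit it turned for 7 further members in TRIM28 knockdown, such as RBMS3 (0.10) and LATS1 (0.33), for 2 in PARP1 knockdown, such as RBMS3 (0.54), and for 6 in the direct comparison, such as FJX1 (0.31).

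In TRIM28 knockdown minus control, the 1 higher member became 2 by DESeq2, by its size factors and with both trends removed, 3 with the compared groups alone, 0 with library totals, with no filter and in the 3 limma fits, and 0 to 1 leaving out a library. Over all tested genes the 1394 higher became 1895, 1664, 1472, 2116, 453 and 1062 in the same order up to no filter. They became 541, 498 and 137 in limma (1 added, 0.1 added, unfiltered) and 320 to 2154 leaving out a library. The 9 lower became 3 in unfiltered limma, 4 with both trends removed and 4 to 12 leaving out a library. Over all tested genes the 2374 lower became 932, 1415 and 1217 to 2755 in the same order. The component median of -0.25 became -0.42 with library totals, 0.02 with length removed, -0.09 with both and -0.27 to -0.14 leaving out a library, and the target median of -0.27 became -0.43 with library totals and -0.41 in limma with 0.1 added.

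In PARP1 knockdown minus control, the 4 higher became 1 with library totals and in the 3 limma fits, and the 20 lower became 12 with length removed. Over all tested genes the 3681 higher became 2024 with library totals and 2140, 2134 and 1904 in limma. The 4361 lower of all tested genes became 3360 with length removed. The component median of -0.68 became -1.02 with library totals, -0.20 and -0.27 with length and both trends removed, and -0.83 to -0.54 leaving out a library. In limma it was -0.33 (1 added) and -0.81 (0.1 added) over the fewer components that passed the filter, and -0.32 unfiltered. The target median of -0.43 became -0.74 with library totals, -0.74, -0.78 and -0.72 in limma and -0.33 with length removed.

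In the direct comparison, the 8 higher became 0 in unfiltered limma and 5 to 12 leaving out a library. Over all tested genes the 1795 higher became 49 and 990 to 2465 in the same order. The 2 lower became 0 with library totals, with no filter and in limma, 1 with length removed (ARHGEF17) or both trends removed (AJUBA), neither of them among the 2, and 0 to 2 leaving out a library. Over all tested genes the 1612 lower became 640 with library totals, 1354 with no filter and 672, 679 and 14 in limma. They became 1638 with length removed, 1030 with both trends removed and 664 to 2249 leaving out a library. The component median of 0.39 became 0.55 with library totals, 0.18 in unfiltered limma, 0.20 with length and 0.04 with both trends removed, and the target median of 0.23 became 0.40 with library totals and 0.38, 0.43 and 0.36 in limma.

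To see whether replicate numbers pair libraries, each gene's group mean was subtracted from its log2 levels. The remainders were then correlated between libraries of different groups, so these values do not compare whole transcriptomes. In the remainders, same-numbered libraries correlated at -0.081 to 0.141, and differently numbered ones at -0.164 to 0.118. Same-numbered pairs with a control library were all above 0, at 0.011 to 0.141, and those between the knockdowns lay at -0.081 to 0.009. With so few libraries a group, these values cannot settle whether the numbers pair them. With the replicate block, members split into 2 higher and 9 lower in TRIM28 knockdown minus control, 4 and 20 in PARP1 knockdown minus control, and 8 and 2 in the direct comparison. The 13562 tested genes split in the same order into 1684 higher and 2401 lower, 3718 and 4353, and 1935 and 1727. Depth limits AMOT and TEAD2, and leaves members at a few CPM with wide errors, such as MOB1B in PARP1 knockdown (SE 0.35).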
